A study of Drosophila melanogaster with 2 samples.

Results

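The genes described here are all 80 protein-coding genes that the Ensembl annotation places on chromosome 4 of Drosophila melanogaster, of 13968 protein-coding genes on the chromosomes X, 2L, 2R, 3L, 3R, 4 and Y. The rule uses their position alone and no measured value, although chromosome 4 was picked for description with earlier results of these data known. The data are chromatin immunoprecipitation and sequencing (ChIP-seq) of gfzf in whole embryos, 0 to 24 h old and of both sexes, from a transgenic line whose gfzf protein ends in green fluorescent protein (GFP). Binding was enriched with an antibody to GFP from sonicated chromatin of 200 to 800 bp. There were 2 biological replicates and a single group, so no conditions could be compared. The labels state neither what drives the fusion gene, nor whether untagged gfzf remained, nor whether the replicates were separate embryo collections.

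Chromosome 4 is the small dot chromosome of the fly. It carries active genes in a setting that resembles heterochromatin elsewhere, with abundant HP1a, the protein that reads methylated histone H3, and many remnants of transposable elements. In D. melanogaster its genes are also coated by POF, a protein that keeps up their transcription. The protein gfzf joins a glutathione S-transferase domain to zinc fingers of the FLYWCH type, is known as a cause of hybrid lethality between fly species, and is known in fly cells as a co-activator at promoters that hold a sequence called Motif 1.

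A gene is called bound when the summit of a peak of the authors' reproducible set, called the optimal set here, lay within 250 bp of any of its transcription start sites (TSSs). The 5007 summits of this set were also the 5007 strongest in the authors' relaxed list of the pooled replicates. Bound genes were thus divided from genes with weaker promoter peaks by pooled signal. Peak signal is the signal value in the authors' deposited lists. Its scale is unstated, so levels are compared within a list. Values of the replicates' lists are given side by side, and their ratio need not reflect binding. Sequencing depth is unknown. In whole embryos, weak binding in many cells and strong binding in few cells cannot be told apart.

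The sequences below are from promoters of chromosome 4 and show the elements that the results refer to, and the DNA at the strongest summits. They come from the RefSeq sequence of Release 6 (dm6) and are written 5′ to 3′ on the strand of the gene, with capitals marking an element where one is present. The first set holds the core of Motif 1, which the factor M1BP reads. It lay in the first exon of Rad23 (plus strand, chr4:308097-308126), of Zyx (minus strand, chr4:1060872-1060901) and of Dyrk3 (minus strand, chr4:1230690-1230719). The core began 15 bp, 28 bp and 5 bp downstream of the TSS.
Rad23: agtccatgtgcGGTCACACtgatgacaaat
Zyx: tctcgtgttaaGGTCACACtgctgggcctc
Dyrk3: tgttttaacacGGTCACACtgttcttctct

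The second set holds the DNA replication-related element (DRE), the palindrome read by the factors DREF and, in part, BEAF-32. The 3 bound genes that carried it in the promoter stretch searched below are shown first: Crk (plus strand, chr4:210239-210268), PMCA (minus strand, chr4:358658-358716) and PlexA (minus strand, chr4:1027134-1027193). The other 3 sequences show the same element at genes that were not bound: Hcf (plus strand, chr4:359901-359937), Taf3 (minus strand, chr4:466830-466889) and MED26 (minus strand, chr4:787620-787679).
Crk: cgatcaaacatTATCGATAgtgtttctatg
PMCA: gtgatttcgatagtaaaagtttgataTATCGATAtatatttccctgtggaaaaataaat
PlexA: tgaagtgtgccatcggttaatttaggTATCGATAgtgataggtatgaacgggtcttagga
Hcf: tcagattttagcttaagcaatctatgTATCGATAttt
Taf3: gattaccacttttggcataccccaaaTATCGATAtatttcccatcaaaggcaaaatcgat
MED26: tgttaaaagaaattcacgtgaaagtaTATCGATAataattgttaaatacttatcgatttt

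The third set shows the DNA under the 2 strongest summits of the chromosome, which held neither element on either strand. They are the stretch upstream of Pur-alpha (plus strand, chr4:557953-558015) and the stretch upstream of Gyf (minus strand, chr4:867049-867169).
Pur-alpha: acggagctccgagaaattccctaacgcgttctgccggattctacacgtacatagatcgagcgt
Gyf: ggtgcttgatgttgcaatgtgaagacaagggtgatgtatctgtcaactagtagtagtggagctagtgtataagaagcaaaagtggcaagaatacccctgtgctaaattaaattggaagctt

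Of the 80 genes, 36 were bound (45.0%), beside 33.0% of all 13968 genes. The other arms lay at 35.6% for X, 29.9% for 2L, 34.2% for 2R, 32.4% for 3L and 33.2% for 3R. On chromosome 4, 4 summits each bound 2 genes. No test was made of the difference. Chromosome 4 genes also had more annotated starts, with 1.77 TSSs per gene against 1.40 elsewhere. With 1 TSS per gene, 36.2% of the chromosome 4 genes and 29.9% of all genes were bound. Among genes with a single annotated TSS, 17 of 42 were bound on chromosome 4 (40.5%), and 28.8% elsewhere.

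A further 23 genes carried a promoter summit only in the relaxed pooled list, with signals from 12.9 to 87.5 and a median of 48.0. The remaining 21 genes had no promoter summit in that list. Counting the relaxed list, 59 of the 80 genes had a promoter summit (73.8%), beside 51.6% of all genes. Of the genes with a relaxed summit, 61.0% were bound on chromosome 4 and 64.0% elsewhere.

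**Figure D1:**
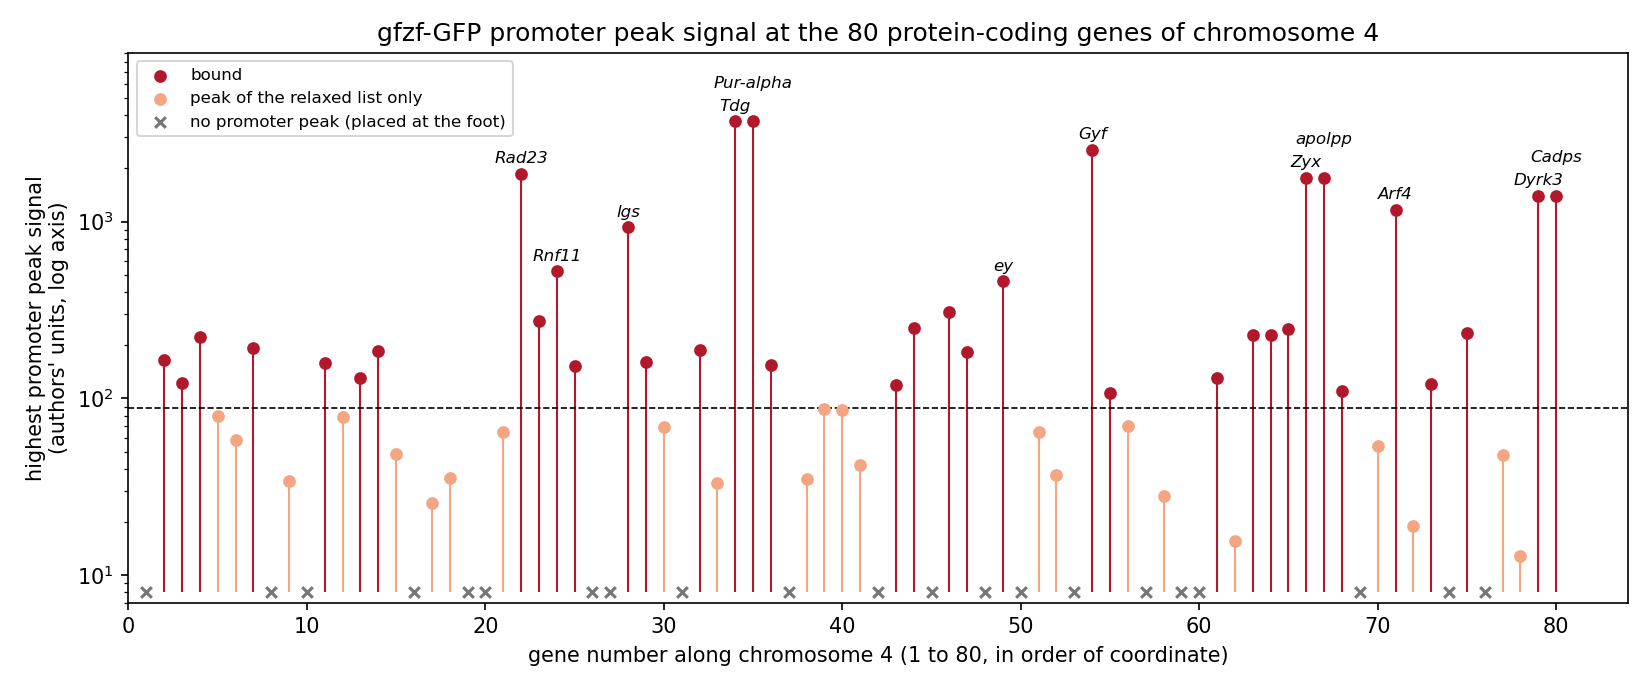
Highest promoter peak signal of each gene (log axis, authors' units) against the gene's order along chromosome 4, with the lowest signal of the optimal set, 88.4, as a dashed line. The 9 genes above 1000 lie from Rad23 (gene 22) to Cadps (gene 80), with none before Rad23. Bound and unbound genes lie side by side along the chromosome.

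Bound promoters of chromosome 4 carried mostly weak peaks. The median signal of the 36 bound genes was 228 (quartiles 158 and 991, highest 3696), while that of the bound genes elsewhere was 734 (quartiles 194 and 2066), with arm medians from 504 to 988. There were 9 genes above 1000, 5 between 250 and 1000 and 22 below. The order of chromosome 4 against the rest therefore depended on the signal counted. All 36 bound genes exceeded 100 (45.0% of the genes against 31.8% elsewhere), but 17.5% exceeded 250 against 22.6%, 11.2% exceeded 1000 against 14.3%, and 3.75% exceeded 2000 against 8.55%. In the stronger part of the optimal set, split at its median signal, 12 genes were bound (15.0%), beside 20.2% of all genes. The base composition also differed: 35.2% of the bases of chromosome 4 were G or C against 42.2% elsewhere, and the part of this in the signal was not tested.

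**Figure D2:**
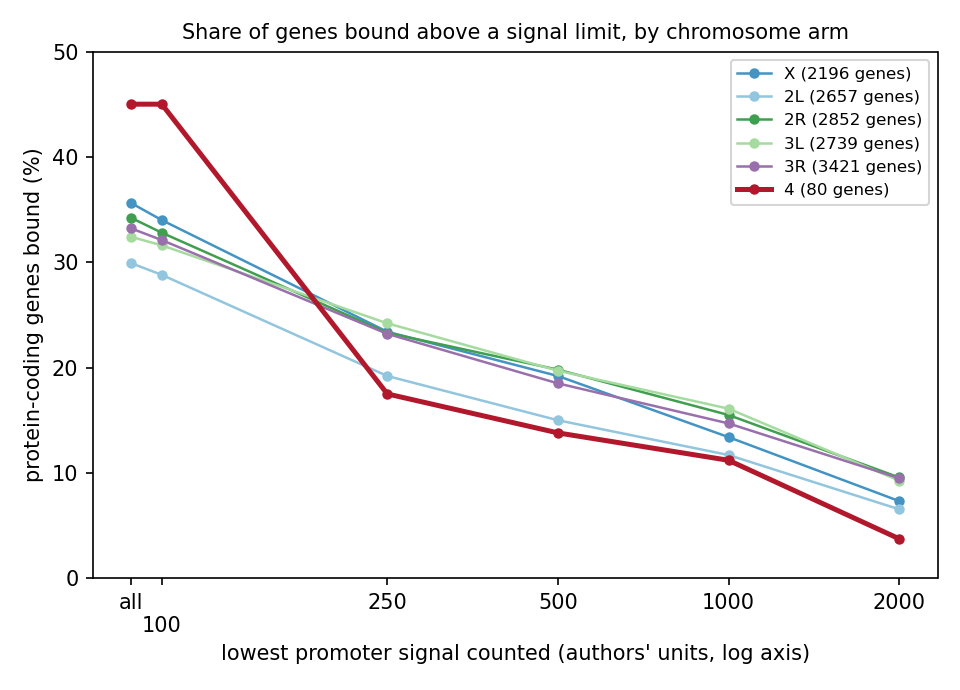
Percent of protein-coding genes bound above each signal limit (log axis, authors' units) for chromosome 4 and the 5 large arms, where all stands for the whole optimal set. The line of chromosome 4 starts above every arm at 45.0% and lies below every arm from a limit of 250 on.

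The strongest promoter peak lay between Tdg, which encodes thymine DNA glycosylase, an enzyme of base excision repair, and Pur-alpha, which encodes a protein that binds single-stranded nucleic acids. Its interval was chr4:557563-558648, and its summit lay 3 bp upstream of a Pur-alpha TSS and 159 bp upstream of the Tdg TSS. Its signal was 3696 in the optimal set, 2318 in replicate 1 and 1373 in replicate 2. It ranked 360 of 5007 in the optimal set, 345 in replicate 1 and 392 in replicate 2, so each list held many stronger peaks on other chromosomes.

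Gyf encodes a GYF domain protein, whose mammalian counterparts repress translation. Its peak (chr4:866830-867432) had a signal of 2559, with 1411 in replicate 1 and 1156 in replicate 2, and a summit 84 bp upstream of the TSS. It ranked 791 in replicate 1 and 520 in replicate 2. These ranks differed more than those of the peak at Tdg and Pur-alpha.

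Rad23, which carries ubiquitinated proteins to the proteasome and acts in nucleotide excision repair, had a signal of 1867 at chr4:307693-308378. The replicates gave 1101 (rank 1060) and 767 (rank 929), and the summit lay 37 bp upstream of the TSS. It had the highest signal among the genes with the Motif 1 core.

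Zyx, the fly zyxin, a LIM domain protein of cell adhesion sites, and apolpp, which encodes the main lipoprotein of the fly's blood, start in opposite directions and shared the peak chr4:1060720-1061368. Its signal was 1771, with 1045 in replicate 1 (rank 1128) and 731 in replicate 2 (rank 979). The summit lay 39 bp upstream of the Zyx TSS and 12 bp upstream of the apolpp TSS.

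Dyrk3, a protein kinase gene, and Cadps, whose product primes dense-core vesicles for release, also start in opposite directions. Their shared peak (chr4:1230483-1231191) had a signal of 1403, with 806 in replicate 1 (rank 1391) and 612 in replicate 2 (rank 1153). The summit lay 47 bp upstream of Dyrk3 and 77 bp upstream of Cadps, so a peak between divergent starts again counted for both genes.

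Arf4, a small GTPase gene, had a signal of 1171 at chr4:1123128-1124465, with 666 in replicate 1 (rank 1575) and 514 in replicate 2 (rank 1352). Its summit lay 97 bp upstream of the TSS. A second summit in the same interval, 103 bp downstream of the TSS, had a signal of 121 and 67.2 in replicate 1, with no summit in replicate 2 within 100 bp.

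The gene lgs, or legless, encodes the co-activator that links Pygopus to beta-catenin in Wnt signalling. Its signal was 931 at chr4:443639-444438, with 611 in replicate 1 (rank 1657) and 320 in replicate 2 (rank 1800), and its summit lay 42 bp upstream of the TSS. With it end the 10 genes with the highest signal, which rested on 7 peaks.

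By role, 14 of the 19 genes with general cell functions were bound (73.7%), beside 45.0% of the chromosome's genes and 33.0% of all genes, with a median signal of 262 over the bound ones. Beside Tdg, Gyf, Rad23, apolpp and Arf4 they were Rnf11 (signal 525), a ubiquitin ligase gene, Zip102B (275), a zinc transporter gene, and gw (250), whose product silences microRNA targets. The beta subunit of the mitochondrial ATP synthase, ATPsynbeta, had 228, the ribosomal protein gene RpS3A 223, anne 194, the ARF-like GTPase gene Arl4 159, the complex I subunit ND-49 154 and the plasma membrane calcium pump PMCA 152. Those that carried only relaxed peaks included 4E-T, a partner of the cap-binding protein, Mpv17, a mitochondrial membrane protein, and the initiation factor eIF4G1. JYalpha, a sodium pump subunit, had no promoter peak. These lists were drawn up with earlier results of these data known, and genes of unequal TSS number enter them. No list was tested against another or against the same roles elsewhere. Tdg, apolpp and ATPsynbeta each counted through a summit shared with a gene outside this list, namely Pur-alpha, Zyx and CG11076. Dyrk3 and Cadps, which are in different lists, also shared a summit.

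The genes of transcription and chromatin were bound in 5 of 19 cases (26.3%, median signal 460), beside the same 45.0% and 33.0%. Beside Pur-alpha and lgs they were ey (460), the Pax6 gene of eye development, pho (236), which recruits Polycomb complexes, and ci (122), the transcription factor of the Hedgehog pathway. The summit at ci lay 167 bp upstream of a ci TSS and 1 bp from the start of the noncoding RNA gene asRNA:CR43957. Within 250 bp of a TSS, relaxed peaks alone were found at MED26 and Taf3, parts of Mediator and of TFIID. The same held for pan, the fly TCF of Wnt signalling, and for Mitf, Sox102F, onecut and zfh2. No promoter peak was found at Hcf, the fly host cell factor, at toy, the second Pax6 gene, at sv, the fly Pax2, or at NfI, dati, fd102C and fuss. Of the Pax6 pair, ey had a summit in both replicates (272 and 188) at 1 of its 3 TSSs, and toy had no promoter summit. With 1 TSS per gene ey was not bound either. The share of this list depended on the TSS distance. At 500 bp, Hcf, MED26 and pan would also count as bound, but no further gene with general cell functions. The peaks behind this were 549 at Hcf (285 bp from a TSS), 274 at MED26 (418 bp) and 190 at pan (269 bp). At 100 bp, ci and pho were lost from this list, and Tdg from that of general cell functions.

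Growth factor, receptor and signalling genes were bound in 8 of 16 cases (median signal 176), beside 45.0% of the chromosome's genes and 33.0% of all genes. Dyrk3 (1403) and Slip1 (309) led them, followed by the tau tubulin kinase gene Asator (187), the adaptor gene Crk (185), the semaphorin receptor genes PlexB (166) and PlexA (130), the kinase gene CaMKI (160) and the activin gene Actbeta (110). Of the TGF-beta ligands, Actbeta was bound, though not without replicate 1, mav had a relaxed peak of 41.9 seen in replicate 1 only, and myo had no promoter peak. Of the ephrin pair, the receptor gene Eph had a relaxed peak of 86.1 and Ephrin had none. PIP4K and dpr7 had relaxed peaks only, and RhoGAP102A and yellow-h had none.

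Neuronal genes were bound in 4 of 9 cases (44.4%, median signal 182), close to the 45.0% of the chromosome's genes and beside 33.0% of all genes. They were Cadps (1403), the kinase gene CaMKII (246), the kainate receptor gene Ekar (119) and unc-13 (107), whose product primes synaptic vesicles. Cals and Syt7, a calsyntenin and a synaptotagmin gene, had relaxed peaks only, and the GABA transporter gene Gat, the kinesin gene Kif3C and the glutamate receptor gene mGluR had none at a promoter. Of the 3 muscle, adhesion and cytoskeleton genes, Zyx was bound, Ank, an ankyrin gene, had a relaxed peak, and bt, which encodes a giant titin-like muscle protein, had none. Of the 14 genes in no list, 4 were bound: CG11076 (228), CG11360 (182), CG31998 (130) and CG32017 (121).

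**Figure D3:**
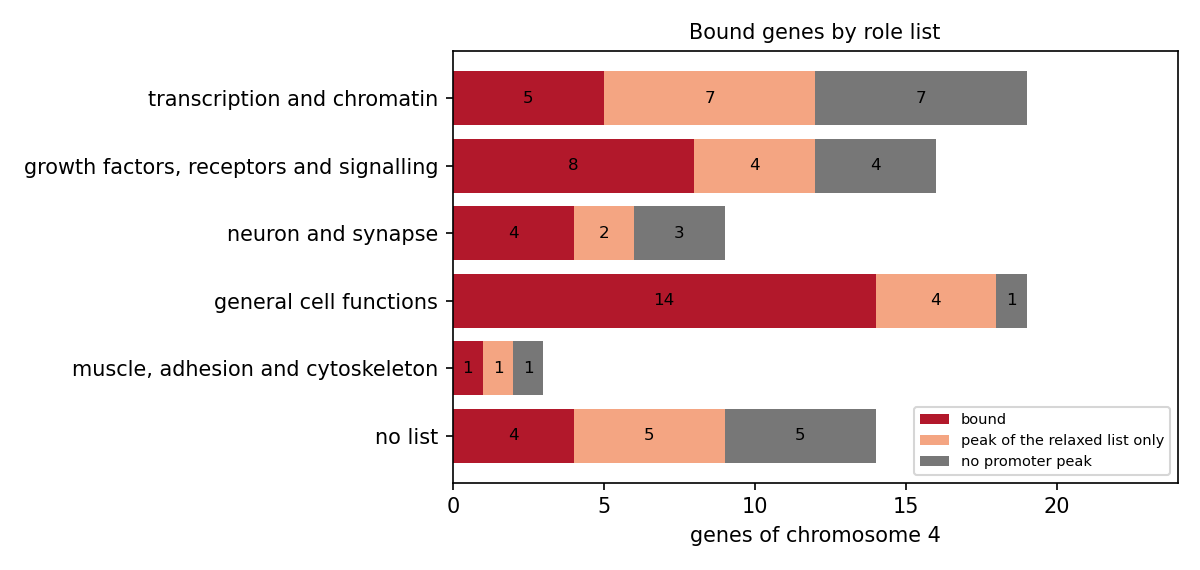
Number of chromosome 4 genes in each role list, divided into bound genes, genes with a promoter peak in the relaxed list only and genes with none. The list of general cell functions has 14 bound genes of 19, and that of transcription and chromatin has 5 of 19. On the whole chromosome 36 of 80 are bound. Bound means within 250 bp of a TSS, and at 500 bp Hcf, MED26 and pan would join the bound genes of transcription and chromatin.

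The genes next to the limit of the optimal set differed little in signal. The 5 lowest bound genes were ci (122), CG32017 (121), Ekar (119), Actbeta (110) and unc-13 (107). Among the highest unbound ones were onecut (87.5), Eph (86.1), pan (79.7) and eIF4G1 (69.9). Actbeta ranked 4265 in replicate 1 and 5546 in replicate 2, and unc-13 ranked 4347 and 5383, so both passed rank 5007, the size of the optimal set, in replicate 2. Neither these genes nor pho counted as bound without replicate 1. There the 5007 strongest peaks of replicate 2 stood in for the optimal set. For the relaxed promoter peak of pan, replicate 2 gave no summit. An optimal peak of 190 lay 269 bp upstream of a pan TSS, outside the limit, with 133 and 67.1 in the replicates. Of the 23 genes with relaxed peaks, 15 had a summit within 100 bp of the pooled one in both replicates and 8 in a single one. Among the latter were pan, zfh2, CG1909, mav, Sox102F, CG11155 and Mitf.

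Among the bound genes, 35 of 36 had the summit in both replicates. The exception was pho, with 147 in replicate 1 and no summit in replicate 2 within 100 bp, although a neighbouring summit of signal 226, 355 bp upstream of pho, appeared in both at 109 and 110. Of all 66 optimal peaks of the chromosome, 64 were found in both replicates (97.0%), beside 97.2% elsewhere. Across these 64 peaks the signals of both replicates had a Spearman correlation of 0.886, against 0.961 over 4801 peaks elsewhere. The peaks share the same libraries, and the range of signal on chromosome 4 was narrower. The value listed for replicate 1 was 1.55 times that for replicate 2 at the median peak (quartiles 1.32 and 1.92), beside 1.66 elsewhere, an offset between the lists as a whole.

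**Figure D4:**
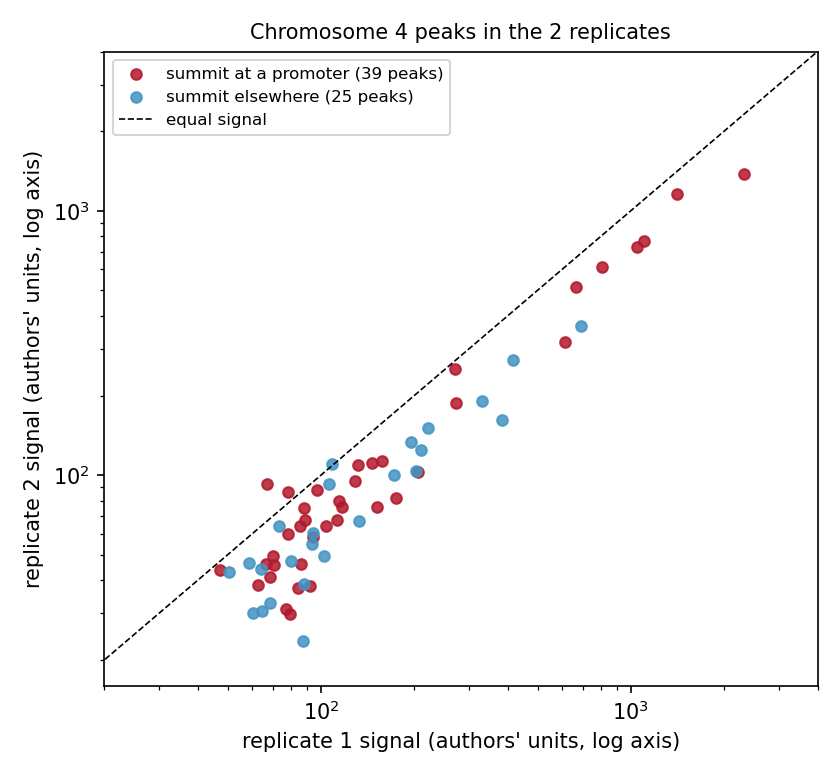
Signal of the 64 chromosome 4 peaks found in both replicates (log axes, authors' units), with replicate 1 on the horizontal axis, 39 peaks at a promoter, 25 elsewhere and a dashed line of equal signal. Most points lie below the line, with a median ratio of 1.55.

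Summits sat just upstream of the starts. The median offset from the TSS was -52.5 bp (quartiles -94.0 and -38.8) for the 36 genes, beside -48.0 bp elsewhere (quartiles -91.0 and -21.0). In 35 genes the strongest summit lay upstream, and at Asator it lay 54 bp downstream (signal 187). A weaker Asator summit (170) lay 91 bp upstream of a TSS. The strongest summit was within 100 bp of the TSS in 29 genes, nearest at Pur-alpha with 3 bp and farthest at CaMKI with 237 bp. CaMKI also had a weaker summit (99.9) 18 bp from a TSS. With any summit counted, 30 of the 36 genes were bound within 100 bp, beside 3717 of the 4609 over all genes. Of the 19 bound genes with more than 1 TSS, 10 had a summit at a single one and 6 had a summit at every one, namely Zip102B, PMCA, gw, CG11076, CaMKII and Cadps.

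**Figure D5:**
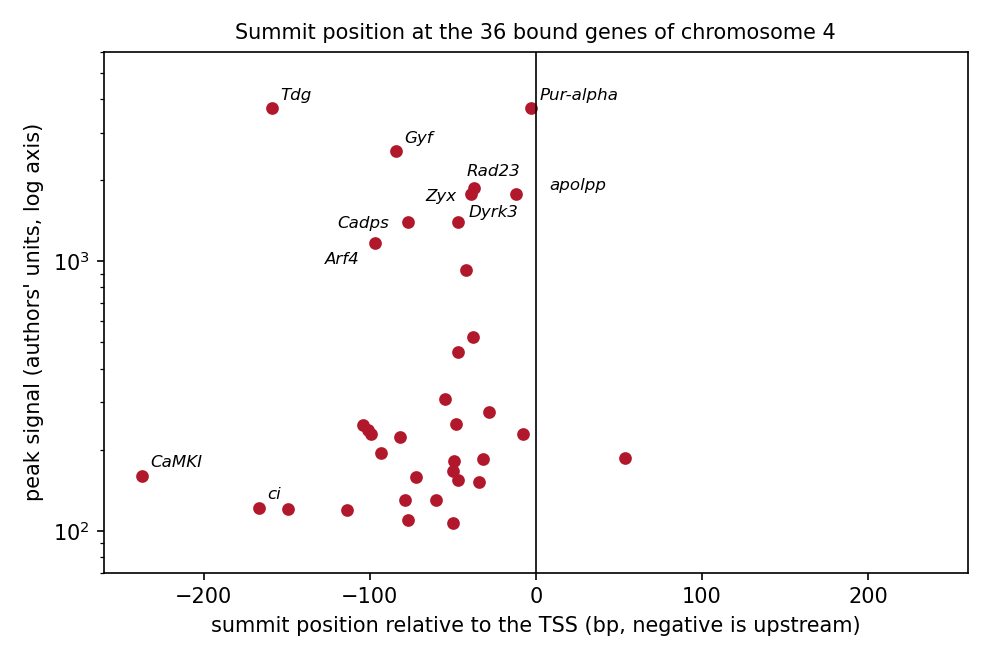
Position of the strongest summit relative to the TSS (bp, negative is upstream) against its signal (log axis, authors' units) at the 36 bound genes. All points except that of Asator lie left of the TSS, and all 9 above a signal of 1000 lie within 159 bp of it.

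Known promoter elements were searched from 100 bp before to 50 bp after the TSS, on both strands. The Motif 1 core GGTCACAC occurred at 4 of the 36 bound genes (11.1%) and at 0 of the 44 others. Elsewhere it occurred at 20.9% of bound and 0.483% of unbound promoters, and over all promoters at 7.19%. The 4 genes were Rad23, Zyx, apolpp and Dyrk3, shown above, and Zyx and apolpp share 1 copy. All 4 had a signal above 1000, so the core was present at 4 of the 9 genes above that limit (44.4%, against 35.6% elsewhere) and at 0 of the 27 below it (9.53% elsewhere). It lay a median of 63.5 bp from the summit, on the transcribed side of Rad23, Zyx and Dyrk3, and at none of the 4 genes within 50 bp. Elsewhere the median was 39.0 bp, and 65.0% of the cores lay within 50 bp of the summit. Of the chromosome 4 peaks away from promoters, 1 held the core within 50 bp of its summit, in a coding exon of CG32006 (signal 155).

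The DRE TATCGATA was no more frequent at bound than at unbound genes of chromosome 4: 3 of 36 (8.33%) against 5 of 44 (11.4%). Elsewhere it occurred at 15.0% of bound and 4.11% of unbound promoters, and over all promoters at 7.71%. The bound carriers were Crk, PMCA and PlexA, all with signals up to 185, and PlexA had a pair of copies. The summit lay 5 bp from the DRE of PMCA and 2 bp from the upstream copy of PlexA. Actbeta and Cadps, also bound, had a DRE within 50 bp of a summit but outside the stretch searched. The unbound carriers were Eph, Hcf, MED26, PIP4K and Taf3. Relaxed promoter peaks were 86.1 for Eph, 64.7 for MED26, 48.0 for PIP4K and 69.0 for Taf3, and Hcf had none. Hcf had an optimal peak of 549, 285 bp from its TSS. MED26 had one of 274, 418 bp from its other TSS, and both genes would count as bound at 500 bp. The shorter core ATCGAT, which every DRE contains, was at 22.2% of bound and 22.7% of unbound genes, against 30.5% and 11.5% elsewhere (17.8% of all promoters).

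CGATA, a site of the insulator protein BEAF-32 that also lies within every DRE, was the element found most often, at 20 of the 36 bound genes (55.6%) and 15 of the 44 others (34.1%). Elsewhere the values were 51.0% and 26.6%, and 34.7% over all promoters. It was at 2 of the 9 genes above a signal of 1000, Tdg and Gyf (22.2%, against 41.0% elsewhere), and at 18 of the 27 below (66.7%, against 58.7% elsewhere). GGTATTT, part of the core promoter element Motif 6, was at the bound genes Gyf and ey and at the unbound genes Eph, PIP4K and mav (5.56% and 6.82%, against 15.5% and 2.56% elsewhere and 6.81% overall).

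The TATA box sequence TATAAA, counted at any position searched, stood at 9 of 36 bound and 9 of 44 unbound chromosome 4 genes. Elsewhere it stood at 16.4% and 27.6% (23.9% of all promoters). At 3 of the 9 bound genes it lay downstream of the TSS (33.3%, against 30.9% elsewhere). Among the bound were Zyx, apolpp, Dyrk3, Cadps and Arf4, 5 of the 9 genes above 1000 (55.6%, against 16.1% elsewhere), which rest on 3 peaks. The E-box CAGCTG was at 1 bound gene, Ekar, and 2 unbound genes, against 17.5% and 9.75% elsewhere (12.2% overall). GAGAG was at 22.2% and 13.6%, against 13.1% and 20.7% (18.2%), and the Initiator core TCAGT at 22.2% and 34.1%, against 26.7% and 43.0% (37.6%). Bound promoters of the chromosome had a median of 37.7% G and C and unbound ones 34.4%, against 41.1% and 42.4% elsewhere. The part of this in the motif counts was not tested.

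The chromosome carried 66 optimal peaks in 63 intervals, or 49.0 per Mb against 36.3 per Mb elsewhere. The latter counts Y, which held no optimal peak, and the large arms had 34.4 (3L) to 41.3 (2R) per Mb. The median signal of the 66 peaks was 170 against 366, and their median width 408 bp against 553 bp. Fewer lay at a promoter: 41 of 66 (62.1%) against 83.9% elsewhere, where promoters made up 6.12% of the bases against 4.70% on chromosome 4. Of the other 25, 14 were intergenic, meaning outside every protein-coding transcript (21.2% of all 66, against 8.14%). Another 4 were in coding exons (6.06% against 0.506%), 3 in introns (4.55% against 5.91%), 2 in 5′ UTRs and 2 in 3′ UTRs. All 25 were found in both replicates, with signals from 89.6 to 1052 and a median of 155, against 170 for the promoter peaks. Transposable elements made up 24.8% of the bases of the chromosome and 5.73% elsewhere, but held 1 of the 66 summits (1.52%) and 0.182% of those elsewhere. How well reads map to such repeats was not analysed here.

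Several of these peaks lay near starts of genes that were not bound. The strongest had its summit 672 bp upstream of the nearest Sox102F TSS, with a signal of 1052, and 689 and 368 in the replicates. The second lay 1551 bp upstream of fuss, a gene of the Ski and Sno family, with 692 (417 and 272). The third was in the 5′ UTR of Hcf, 285 bp downstream of its TSS, with 549 (385 and 161).

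The fourth lay in an intron of Asator, 697 bp from a TSS, with 515 (330 and 190). The fifth lay in a copy of the 1360 transposable element, 7324 bp from the nearest TSS, that of Sox102F, with 373 (222 and 151). Within 500 bp of a TSS lay 6 of the 25 peaks, nearest to pan, Hcf, gw, MED26, mGluR and pho, and 6 lay more than 5000 bp from any TSS. With a distance of 500 bp, Hcf, MED26, mGluR and pan would count as bound, and so would CG46466, for 41 genes (51.2%) beside 36.9% of all genes.

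Bound genes lay along the whole chromosome. In order of coordinate, 7, 10, 7 and 12 of each successive 20 genes were bound. They formed 18 runs, the longest of which were CG11076, ATPsynbeta, CaMKII, Zyx, apolpp and Actbeta, with 6 genes, and Rad23, Zip102B, Rnf11 and PMCA, with 4. The longest runs of unbound genes were 7, from CG31999 to Syt7, and 6, from Ephrin to Gat. The genes of chromosome 4 are long, with a median of 9302 bp for the bound and 10474 bp for the others, against 2782 bp and 1880 bp elsewhere.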

How the data were processed

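ChIP-seq peak lists of 2 biological replicates were analysed. The authors deposited peak signal values and −log10 q-values per peak for each replicate, for the pool of both (30000 lines) and for the optimal set, per the labels input and output of an irreproducible discovery rate filter. Peaks were thus called per replicate and on the pool. Which aligner, peak caller and filter settings were used is not given in the sources used here. Depth is unknown, so read counting error could not be given. Control reads were not analysed here.

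Summits on dm6 were set against TSSs of protein-coding transcripts of Ensembl release 115, and the summit rule was tested on simulated data. Replicate summits were linked within 100 bp. A gene with several summits took the strongest. A motif was sought from −100 to +50 bp of the TSS nearest to the summit, and for unbound genes of 1 TSS per gene. Values are descriptions beside the same over all genes, with no test. Python 3.11.15, numpy 2.4.6, pandas 2.3.3, scipy 1.17.1 and matplotlib 3.10.9 were used.

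The members and lists were chosen with earlier results of these data known. Synonyms of member symbols were added to the role lists once the annotation was read, and 18 listed symbols matched no member. The text gives the 10 bound genes with the highest signal in full, the 5 lowest bound genes and those next below the limit, the 5 strongest peaks outside promoters, all other bound genes by signal, and up to 8 unbound genes per role list. All 14 unbound genes of the transcription list are named, beyond that rule and after their values were seen. The values of 1 gene are not reported here by name.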

Additional observations from a re-analysis of the deposited data

How the results depend on the processing

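The count of 36 bound genes stayed within 1.5 times at TSS distances of 100, 500 and 1000 bp, with 1 TSS per gene and with TSSs of any biotype. The same held with interval overlap and without either replicate (34 to 38). Without a replicate, the 5007 strongest peaks of the other replicate's list replaced the optimal set. The number of peaks was thus fixed in advance, and reproducibility was not assessed in that setting. The count was 12 (15.0%) in the stronger part of the optimal set and 59 (73.8%) in the relaxed list, and at 1000 bp 57.5% of the genes were bound. Chromosome 4 stood above all genes at each TSS distance, with 1 TSS per gene and without either replicate, but below in the stronger part. Without replicate 1, Actbeta, pho and unc-13 were lost and Cals was gained, and without replicate 2, onecut and pan were gained. With 1 TSS per gene, ATPsynbeta, CG32017, ND-49, Zyx, apolpp, ey and unc-13 were lost. At a TSS distance of 100 bp, CG32017, CaMKII, Ekar, Tdg, ci and pho were lost.

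The 66 peaks became 14 in the stronger part, 62 to 67 without a replicate and 64 on dm3. The promoter share was 47.0% at 100 bp and 75.8% at 1000 bp, and 64.2 to 64.5% without a replicate. The median signal was 140 on the scale of replicate 1 and 86.1 on that of replicate 2, which are lists of their own scale. The median offset was -71.0 bp with the summits of replicate 2. Within 50 bp of the summit, 0 bound genes held the Motif 1 core and 1, Ekar, held GGTATTT. Within 100 bp of the summit, 5 held the core and 2 held GGTATTT. From 250 bp before to 100 bp after the TSS, 5 held the core and 3 held GGTATTT. The causes were not tested. No paired analysis was possible because there is 1 group. With 2 replicates and unknown depth, weak peaks near the limit of the optimal set are the least certain.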
